A study of Brassica napus with 24 samples.

Results

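Leaf mRNA of *Brassica napus* (oilseed rape) was compared between plants held under a prolonged severe water deficit (WD) and well-watered controls, both harvested 20 d after water was first withheld. The comparison used the 6 libraries whose labels give this harvest and a soil at 25% of field capacity (FC) for the stressed pots, 3 WD and 3 control, out of 24 libraries in the series. The question asked was which leaf transcripts, and among them which nutrient transporters, follow a deficit that has lasted. The other 18 libraries came from earlier harvests and from a milder final deficit.

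WD plants of the cultivar Trezzor, labelled as wild type, received no water from 30 days after sowing until the soil fell to 25% FC, and were then watered only enough to hold it there until harvest 50 days after sowing. The labels and the methods give different lengths for this holding period. Control plants of the same cultivar, age and greenhouse were kept at 80% FC throughout. Each replicate was a pool of 2 plants, and only leaf blades that had grown since the start of the deficit were taken. The labels name no transgene or mutation. The soil water content and the time spent at it cannot be told apart in this comparison.

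In a drying leaf, the hormone abscisic acid is made from carotenoids by cleavage enzymes of the carotenoid oxygenase family and is sensed through receptors that block type 2C protein phosphatases. Kinases and basic-leucine zipper factors freed by that block switch on genes for dehydrins and other hydrophilic proteins thought to shield membranes and enzymes from water loss. Heat shock proteins are chaperones that hold or refold damaged proteins, and their genes answer many stresses besides heat. Leaves under drought are also known to slow growth, to accumulate proline and to redirect nutrients.

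Gene counts lay between 13584904 and 19766574 in WD libraries and between 14088868 and 31112368 in control libraries. Between 8.18% and 9.13% of read pairs were placed at several loci and counted on no gene, which matters in *B. napus* because its A and C subgenomes carry near-identical gene copies. Scaling factors of the TMM method lay between 0.802 and 0.960 in WD libraries and between 1.09 and 1.18 in control libraries, so they moved with the treatment. Results with another scaling are given beside the counts of called genes. No 2 of the 6 libraries held identical values. Of the leaf markers, only 5 light-harvesting and photosystem genes carried an annotation, and all 5 had counts in every library. Other tissues could not be checked in this way. In bulk leaf tissue, fewer cells of a type and less RNA per cell cannot be told apart.

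Prolonged deficit changed the leaf transcriptome broadly and in both directions. Of 54274 genes tested, 4762 (8.77%) rose and 5479 (10.1%) fell in WD leaves at an adjusted p of at most 0.05 in edgeR's quasi-likelihood test with Benjamini-Hochberg adjustment, written below as edgeR adjusted p. Together these were 18.9% of the genes tested, and in 42.5% all 3 WD values lay on one side of all 3 control values. The excess of falls depended on the scaling, with 5053 rises and 5027 falls under DESeq2 size factors in the same edgeR test, and 5849 rises and 5721 falls in DESeq2 itself. A change of at least 4 on the log2 scale, or 16-fold, was reached by 661 of the called genes that fell and by 203 of those that rose. In 95 of the genes that fell, all 3 WD libraries held 0 counts, and in 22 of those that rose all 3 control libraries did. Control replicate 1 held 31112368 gene counts, against at most 19766574 in a WD library, so these numbers come from unequal depths.

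The size of these counts depended on which libraries were in the model. With the 6 libraries of 20 d fitted alone, with the replicate block, 8003 genes rose and 7903 fell. When any 1 of the 6 was left out of the model of 18 libraries, between 2297 and 3489 genes rose and between 2304 and 3139 fell. The lowest counts in both directions came without WD replicate 2. Without WD replicate 1 they were 3243 and 2791, without WD replicate 3 they were 3476 and 2783, and without control replicates 1, 2 and 3 they were 2866 and 2344, 3489 and 2963, and 3284 and 3139. In all 6 of these leave-out fits, 1846 of the 4762 genes that rose (38.8%) and 1461 of the 5479 that fell (26.7%) were called in the same direction. For each gene given by its identifier below that did not keep its call in all 6, this is said beside it.

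The protein domain and transporter annotations that accompany the study listed 2087 of the tested genes, called annotated genes below. For 272 of the 1999 genes in the domain annotation the entry held no data, and these are included in the 2087. The 2087 genes entered those tables because the study had called them on these or the earlier libraries, so their counts are no independent evidence of a direction. Of the 2087, 622 rose (29.8%) and 691 fell (33.1%), with a median log2 fold change of -0.70, against -0.04 over all genes tested. The counts of the gene lists below are given beside these shares. Genes outside those tables are in no list, so a list need not hold a whole family.

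**Figure D1:**
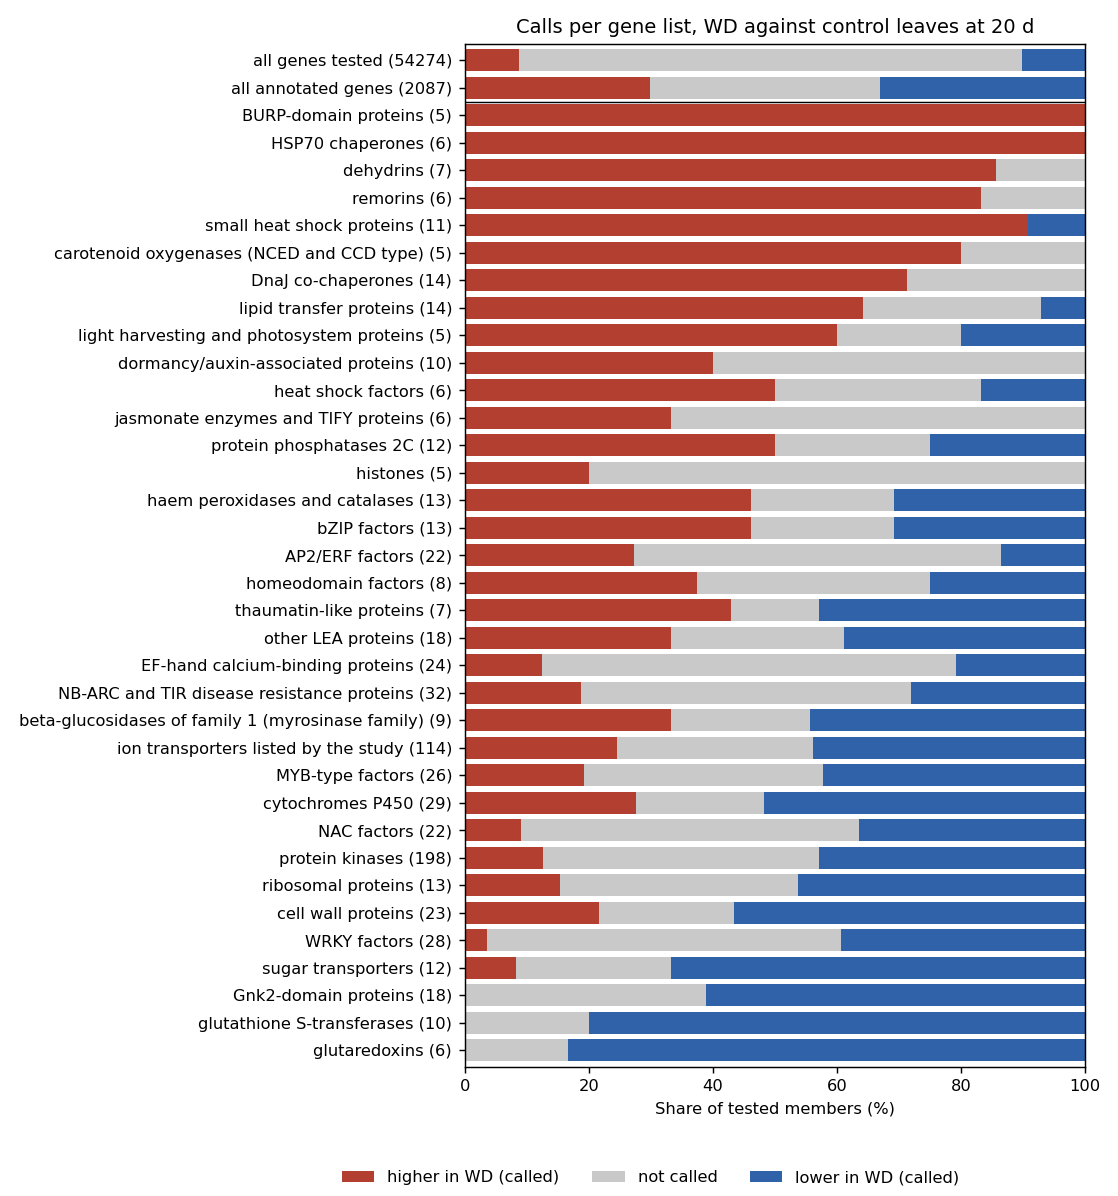
Share of tested members of each gene list that rose (red), were not called (grey) or fell (blue) in WD leaves against control leaves at 20 d, in percent, with the number of members in brackets, for the 35 lists with at least 5 members. The bars for all annotated genes (29.8% and 33.1%) and all genes tested (8.77% and 10.1%) stand at the top, chaperone, dehydrin and BURP lists lie mostly on the red side, and glutathione S-transferase and glutaredoxin lists hold no member that rose.

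Chaperone genes were mostly higher. Of 11 small heat shock proteins, which bind unfolding proteins and keep them from clumping, 10 rose and 1 fell, with a median log2 fold change of 4.14. All 6 HSP70 genes rose (median 2.82), as did 10 of 14 genes of their DnaJ co-chaperones (median 1.78), the single HSP90 gene and 3 of 4 genes with Clp domains. Over all annotated genes the share that rose was 29.8%. The 10 small heat shock genes and the 6 HSP70 genes kept their rise in each leave-out fit, and between 8 and 10 DnaJ genes did.

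The small heat shock gene BnaC02g04180D had 185, 388 and 384 normalized counts in WD replicates 1, 2 and 3, against 2.32, 1.99 and 3.32 in control replicates 1, 2 and 3. Every WD library lay far above every control library, and the log2 fold change was 6.75 ± 0.46 (SE; edgeR adjusted p = 1.25e-05). BnaA03g24280D, of the same family, had 105, 565 and 597 normalized counts in the WD libraries and 4.17, 0.997 and 1.11 in the control libraries. Its WD replicate 1 was the lowest of the 3 and still well above the controls (log2 fold change 6.83 ± 0.75, edgeR adjusted p = 0.000332). The most highly counted member, BnaA06g18100D, averaged 1995 ± 785 normalized counts in WD and 100 ± 17.8 in control leaves (SD, n = 3 each), a 19.9-fold difference of means. The exception was BnaA08g10060D, with 1.35, 11.5 and 10.7 normalized counts in WD leaves and 55.2, 38.9 and 34.3 in control leaves. Its fall (log2 fold change -2.49 ± 0.67, edgeR adjusted p = 0.0217) kept its call in 2 of the 6 leave-out fits, the adjusted p reaching 0.0916.

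A pair of ClpA/B genes, whose annotation matches the HSP101 type of ATPase that pulls proteins out of aggregates, rose almost as far. BnaC06g35220D had 1748, 2402 and 2624 normalized counts in WD leaves, against 34.8, 31.9 and 27.7 in control leaves. BnaA07g31420D had 1813, 2735 and 2316 in WD leaves, against 52.9, 61.8 and 37.6 in control leaves. Both sets of libraries were tight and wide apart, with log2 fold changes of 6.21 ± 0.51 and 5.48 ± 0.36 for BnaC06g35220D and BnaA07g31420D (edgeR adjusted p = 4.11e-05 and 1.25e-05). The third ClpA/B gene of the list, BnaC03g16140D, went uncalled, at 1172 ± 390 normalized counts in WD and 2564 ± 673 in control leaves (edgeR adjusted p = 0.153). Members with the same domain therefore differed in direction of the means.

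Among HSP70 genes, which fold proteins in cycles driven by ATP, BnaC05g12240D rose most. It had 343, 618 and 543 normalized counts in WD leaves and 14.4, 21.9 and 11.1 in control leaves (log2 fold change 4.93 ± 0.45, edgeR adjusted p = 8.15e-05). BnaA03g32320D, the most counted HSP70 gene, reached 3228, 5336 and 3299 normalized counts in WD leaves, against 371, 532 and 418 in control leaves, an 8.98-fold difference of means. The DnaJ gene BnaA09g43710D had 1707 ± 114 normalized counts in WD and 179 ± 38.0 in control leaves (SD, n = 3 each), and BnaC01g27270D had the largest DnaJ rise, at 43.2, 38.5 and 62.5 normalized counts in WD leaves against 1.85, 0.997 and 4.42 in control leaves. The HSP90 gene BnaC08g11400D, annotated as an endoplasmin, rose less, with 131 ± 37.1 normalized counts in WD and 41.0 ± 17.5 in control leaves.

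The transcription factors that drive such genes were mixed. Of 6 heat shock factors, 3 rose, 1 fell and 2 were not called. BnaCnng54110D had 77.0, 57.7 and 75.9 normalized counts in WD leaves, against 0, 1.99 and 3.32 in control leaves (log2 fold change 5.61 ± 0.71, edgeR adjusted p = 0.000408). BnaC01g11370D fell, with 10.8, 16.7 and 36.6 normalized counts in WD leaves against 108, 230 and 168 in control leaves, and kept that call in 2 of the 6 leave-out fits (adjusted p up to 0.0747). A multiprotein bridging factor, BnaA07g05600D, a co-activator type known from Arabidopsis to take part in heat tolerance, had 501, 591 and 551 normalized counts in WD leaves and 10.2, 12.0 and 8.85 in control leaves. The groups were a factor of 53.0 apart on the means, with little spread inside either (log2 fold change 5.75 ± 0.44, edgeR adjusted p = 3.26e-05).

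**Figure D2:**
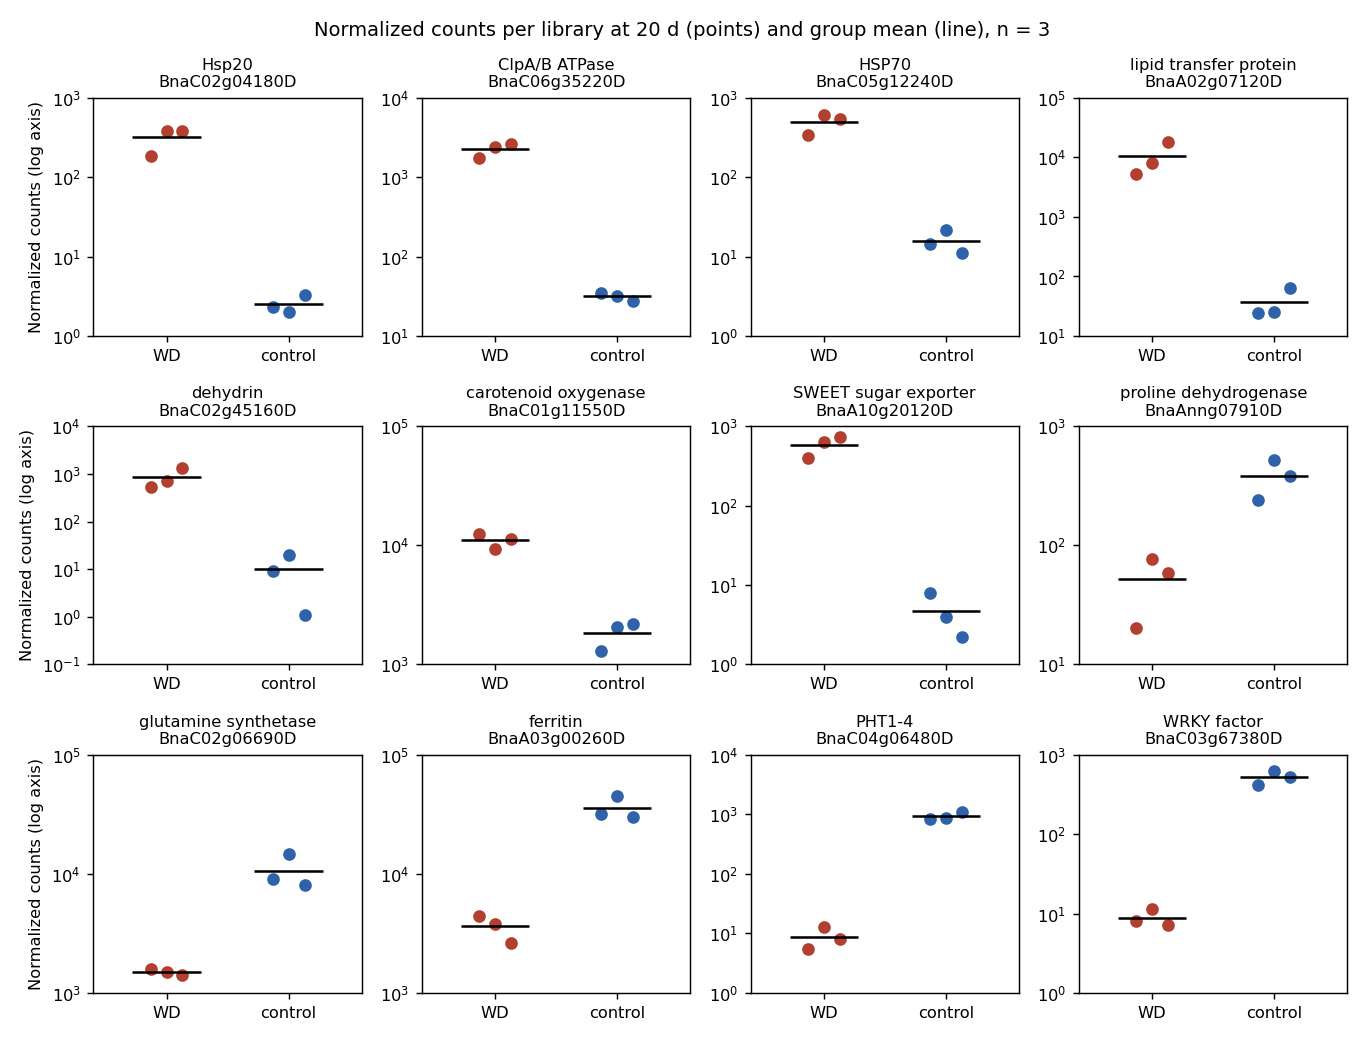
Normalized counts in each library at 20 d for 12 genes, on log axes, with WD libraries in red to the left of control libraries in blue, each group in the order of replicates 1 to 3, and a line at the arithmetic mean of each group (n = 3). The WD and control libraries do not overlap in any of the 12 panels, and the rises among them run from the 5.93-fold rise of the carotenoid oxygenase BnaC01g11550D to the 282-fold rise of the lipid transfer protein BnaA02g07120D.

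Proteins that guard cells against water loss rose as well, though not as one block. Of 7 dehydrins, hydrophilic proteins made in drying tissue, 6 rose and 1 was not called (median log2 fold change 1.28). The largest rise came from a gene with few counts in control leaves. BnaC02g45160D had 532, 723 and 1363 normalized counts in WD leaves, against 9.27, 19.9 and 1.11 in control leaves (log2 fold change 6.12 ± 1.1, edgeR adjusted p = 0.00298). Over the 7 dehydrins the log2 fold changes ran from 1.05 to 6.12. The most counted, BnaC05g15780D, had 16971, 30356 and 26988 normalized counts in WD leaves, against 7071, 14286 and 9403 in control leaves. The groups did not overlap, but its call (edgeR adjusted p = 0.0358) held in 2 of the 6 leave-out fits, with an adjusted p of up to 0.138. The number of dehydrins called without 1 library was 2 without WD replicate 2, WD replicate 3, control replicate 1 or control replicate 3, and 6 without either of the others.

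Other late embryogenesis abundant (LEA) proteins, named for their build-up in maturing seeds, went both ways. Of 18, 6 rose and 7 fell, with a median log2 fold change of -1.50. With 1 library left out, 1 to 6 rose, fewest without WD replicate 2, and 2 to 5 fell, fewest without WD replicate 3. BnaCnng23520D had 751, 1703 and 1387 normalized counts in WD leaves, against 162, 524 and 313 in control leaves (edgeR adjusted p = 0.0132), a call lost without WD replicate 2 or control replicate 1 (adjusted p up to 0.0583). BnaA05g12930D, annotated as LEA-14, fell to 1 count over all 3 WD libraries, against 141 counts over the 3 control libraries. The ratio of control to WD counts was 91.6, with a 95% counting interval of 16.2 to 3643 that does not cover differences between plants, and the call was lost without WD replicate 3 (adjusted p = 0.0595). The most counted member, BnaA09g42180D, rose to 2299 ± 664 normalized counts in WD leaves, against 1023 ± 252 in control leaves, and lost its call without WD replicate 2 or control replicate 1 (adjusted p up to 0.0911).

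Lipid transfer proteins, small secreted proteins that bind lipids and are tied to the leaf cuticle, held the largest rise of all genes named here. Of 14, 9 rose and 1 fell (median log2 fold change 1.29), and between 7 and 9 rose with 1 library left out. BnaA02g07120D had 5334, 8059 and 18244 normalized counts in WD leaves, against 24.1, 24.9 and 63.0 in control leaves. BnaC02g10050D had 7648, 10150 and 17892 in WD leaves, against 42.7, 86.7 and 81.8 in control leaves. WD replicate 3 was the highest library for both, yet even the lowest WD library stood far above the highest control library. The log2 fold changes were 8.17 ± 1.2 for BnaA02g07120D and 7.31 ± 1.2 for BnaC02g10050D (edgeR adjusted p = 0.000814 and 0.00149). Together the 14 genes took 2626 ± 1410 CPM (library counts scaled to a common total) in WD and 214 ± 19.2 in control leaves (SD, n = 3 each). BnaC08g22920D was the one that fell, with 643 ± 65.9 normalized counts in WD and 1186 ± 99.2 in control leaves, and it kept its call in 1 of the 6 leave-out fits (adjusted p up to 0.116).

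A further pair of families, picked for their annotation after the calls were known, moved the same way. All 5 genes with a BURP domain, a plant domain of cell wall and seed proteins that includes the drought marker RD22 of Arabidopsis, rose. BnaC09g03940D had 4061, 4670 and 4687 normalized counts in WD leaves against 609, 461 and 355 in control leaves, and BnaA06g39340D had 20010 ± 480 in WD and 7873 ± 1387 in control leaves. The second of these lost its call without control replicate 1 (adjusted p = 0.0501). Of 6 remorins, proteins of plasma membrane microdomains, 5 rose. BnaA09g36850D had 293, 426 and 353 normalized counts in WD leaves and 39.9, 74.7 and 47.6 in control leaves, and BnaC04g50490D had 3347 ± 1298 in WD and 1205 ± 381 in control leaves. A TspO-type membrane protein, BnaC04g51120D, a family whose Arabidopsis member is induced by abscisic acid and bound to its own breakdown, had 317, 631 and 502 normalized counts in WD leaves against 10.2, 5.98 and 6.64 in control leaves (log2 fold change 5.83 ± 0.86, edgeR adjusted p = 0.00104).

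**Figure D3:**
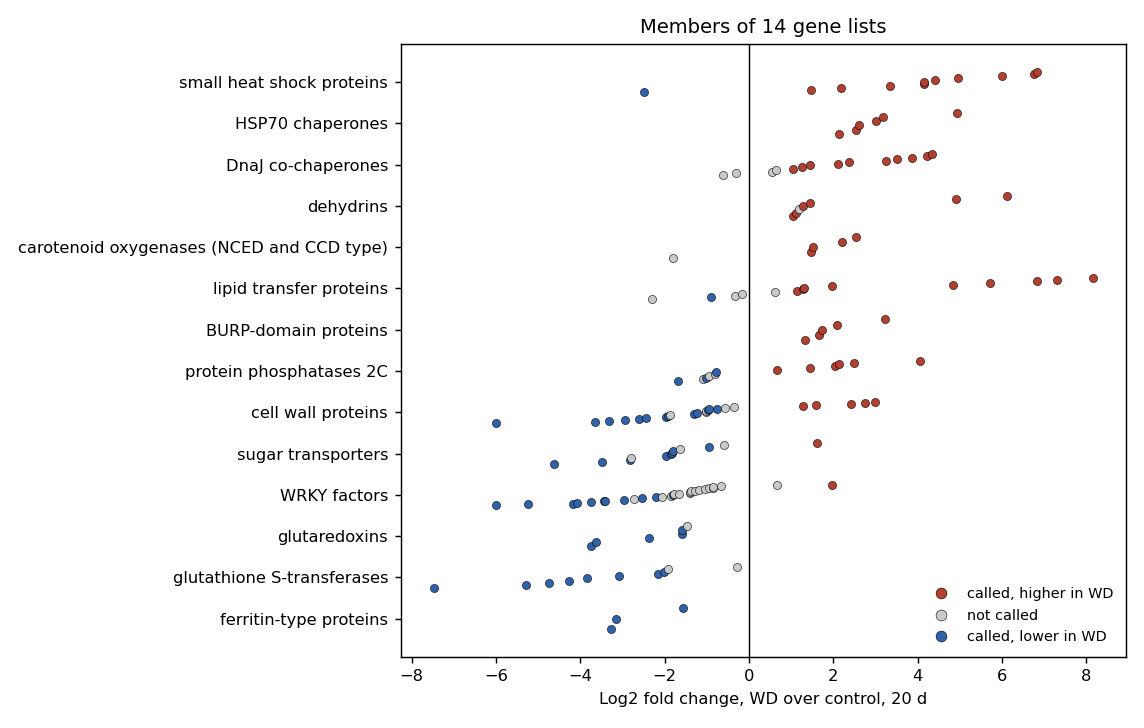
Log2 fold change of WD over control leaves at 20 d for every tested member of 14 gene lists, 1 point per gene, red where it rose, blue where it fell and grey where it was not called. Small heat shock proteins reach 6.83 with 1 member at -2.49, lipid transfer proteins reach 8.17, and all members of the glutathione S-transferase, glutaredoxin and ferritin lists lie below 0.

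Carotenoid oxygenase genes were mostly called higher, and type 2C protein phosphatase genes were split. Of 5 carotenoid oxygenases, the family that holds the 9-cis-epoxycarotenoid dioxygenases of abscisic acid synthesis, 4 rose and 1 was not called. BnaC01g11550D had 12397, 9397 and 11223 normalized counts in WD leaves, against 1307, 2073 and 2184 in control leaves (log2 fold change 2.53 ± 0.45, edgeR adjusted p = 0.00275). BnaA01g09900D, the most counted, had 17190, 13750 and 13841 in WD leaves against 5475, 5131 and 4914 in control leaves. The 3 WD libraries of each gene stood clear of the controls, but the call of BnaA01g09900D (edgeR adjusted p = 0.0149) held in 2 leave-out fits only, with an adjusted p of up to 0.0579. The annotation does not tell dioxygenases of abscisic acid synthesis from other carotenoid cleavage enzymes, and without WD replicate 2 or control replicate 1 only 1 of the 5 genes was called. Without WD replicate 1 it was 2.

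Of 12 type 2C protein phosphatases, the family whose clade A brakes abscisic acid signalling, 6 rose and 3 fell (median log2 fold change -0.06). With 1 library left out, 4 to 6 rose and 0 to 1 fell, with 0 falls without WD replicate 1, WD replicate 3 or control replicate 2, and the annotation does not single out clade A. BnaA10g04840D had 335, 236 and 274 normalized counts in WD leaves, against 17.2, 19.9 and 12.2 in control leaves (log2 fold change 4.05 ± 0.64, edgeR adjusted p = 0.00148). BnaAnng31370D had 95.9, 233 and 222 in WD leaves against 416, 738 and 568 in control leaves, a fall whose call held in 1 leave-out fit (adjusted p up to 0.0907). Basic-leucine zipper factors split in a like manner, with 6 of 13 higher and 4 lower. There were 0 to 6 rises and 1 to 4 falls when 1 library was left out, fewest without WD replicate 2 for rises and without WD replicate 3 for falls. The most counted, the G-box binding type BnaC04g01070D, had 711, 1983 and 871 normalized counts in WD leaves and 283, 407 and 314 in control leaves, and lost its call without WD replicate 2 (adjusted p = 0.0592).

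Proline dehydrogenase, the mitochondrial enzyme that starts the breakdown of proline, was represented by 1 gene, and it fell. BnaAnng07910D had 20.3, 76.9 and 58.9 normalized counts in WD leaves, against 239, 524 and 385 in control leaves. The means were 7.35-fold apart, in a direction shared by all replicates (log2 fold change -2.91 ± 0.50, edgeR adjusted p = 0.00241). No gene of the proline synthesis enzymes carried an annotation. Of 6 jasmonate genes (lipoxygenases, an allene oxide cyclase and TIFY repressors), 2 rose, both lipoxygenases, and 4 were not called. The lipoxygenase BnaC02g15950D, of the enzyme class that takes the first step from linolenic acid to jasmonate, had 14920, 16286 and 12446 normalized counts in WD leaves against 3411, 2102 and 3308 in control leaves (log2 fold change 2.29 ± 0.53, edgeR adjusted p = 0.0104).

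Iron storage and thiol redox genes fell. All 3 ferritins, plastid shells that store iron, were lower, and together they took 345 ± 82.7 CPM in WD leaves, against 3937 ± 778 in control leaves (SD, n = 3 each). BnaA03g00260D had 4470, 3815 and 2634 normalized counts in WD leaves against 31782, 44942 and 30302 in control leaves (log2 fold change -3.28 ± 0.60, edgeR adjusted p = 0.00346). All 3 falls were kept in all 6 leave-out fits.

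Of 10 glutathione S-transferases, which join glutathione to toxic or oxidised molecules, none rose and 8 fell (median log2 fold change -3.46). The 10 genes together took 37.1 ± 8.11 CPM in WD and 431 ± 95.4 in control leaves. BnaCnng35440D had 1.35, 5.13 and 2.68 normalized counts in WD leaves, against 290, 494 and 232 in control leaves (log2 fold change -7.48 ± 1.3, edgeR adjusted p = 0.00412). The most counted member, BnaA07g28460D, had 134, 326 and 154 in WD leaves and 1102, 2175 and 1912 in control leaves, and kept its call (edgeR adjusted p = 0.0268) in 1 leave-out fit. Leaving out WD replicate 3 left 3 of the 8 falls called, and at most 7 were called without any 1 library. Of 6 glutaredoxins, small reductases that use glutathione, none rose and 5 fell, and 3 falls were called in each leave-out fit. BnaA09g40320D had 10.8, 16.7 and 6.25 normalized counts in WD leaves, against 98.3, 231 and 118 in control leaves.

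Enzymes that remove hydrogen peroxide with haem were split. Of 13 haem peroxidases and catalases, 6 rose and 4 fell, and these became 4 to 6 rises and 1 to 3 falls with 1 library left out, fewest without WD replicate 2 for rises and without WD replicate 3 or control replicate 1 for falls. The catalase BnaC07g15280D, which breaks down hydrogen peroxide in peroxisomes, had 27298, 25644 and 31944 normalized counts in WD leaves, against 11067, 10845 and 10494 in control leaves. Both groups were tight (log2 fold change 1.37 ± 0.30, edgeR adjusted p = 0.00819). The peroxidase BnaA07g23450D had 208, 142 and 183 in WD leaves against 20.9, 25.9 and 28.8 in control leaves, whereas BnaC03g66590D had 6.75, 2.56 and 5.36 in WD leaves against 17.6, 32.9 and 24.3 in control leaves, a fall whose call held in 2 leave-out fits (adjusted p up to 0.155).

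Glutamine synthetase genes were mostly lower, and so was an asparaginase gene. Of 3 glutamine synthetases, which fix ammonium into glutamine, 2 fell and 1 was not called. BnaC02g06690D had 1593, 1505 and 1407 normalized counts in WD leaves, against 9092, 14817 and 8065 in control leaves. The WD libraries were alike, the controls were more spread, and the groups lay far apart (log2 fold change -2.86 ± 0.48, edgeR adjusted p = 0.0021). BnaC05g37230D, an asparaginase that releases ammonium from asparagine, had 4.05, 12.8 and 4.46 normalized counts in WD leaves, against 864, 1866 and 262 in control leaves (log2 fold change -7.18 ± 1.2, edgeR adjusted p = 0.00213).

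Sugar transporter genes were mostly lower. Of 12 genes of the sugar/inositol transporter family, a list picked after the calls were known, 8 fell and 1 rose, and 4 to 6 fell with 1 library left out, fewest without WD replicate 2, WD replicate 3 or control replicate 2. BnaC07g31250D had 13.5, 12.8 and 3.57 normalized counts in WD leaves, against 212, 267 and 226 in control leaves (log2 fold change -4.63 ± 0.82, edgeR adjusted p = 0.00272). The single SWEET gene, of the family that lets sugars leave cells, rose. BnaA10g20120D had 394, 628 and 731 normalized counts in WD leaves, against 7.88, 3.99 and 2.21 in control leaves (log2 fold change 6.63 ± 1.0, edgeR adjusted p = 0.00127).

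More ion transporters were called lower than higher, 43.9% against 24.6%, beside 33.1% and 29.8% of annotated genes. Of the 114 transporter genes, 28 rose and 50 fell, with a median log2 fold change of -1.08, and with 1 library left out between 16 and 24 rose and between 20 and 41 fell. The lowest counts came without WD replicate 2 for rises and without WD replicate 3 for falls. By the element carried, the counts ran as follows. Among transporters listed under nitrogen 10 of 12 fell and 0 rose, and among phosphorus transporters 10 of 20 fell and 1 rose. The nitrate transporter NPF7.3, listed apart under nitrate, also fell (log2 fold change -2.06). Among sulfur transporters 3 of 6 rose and 0 fell, and among potassium transporters 5 of 12 rose and 3 fell. These are counts only, and the differences between elements were not tested.

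Phosphate and nitrogen transporters held deep falls. All 5 copies of PHT1-4, a high-affinity phosphate transporter, fell, with log2 fold changes from -6.83 to -3.78. BnaC04g06480D had 5.40, 12.8 and 8.04 normalized counts in WD leaves, against 832, 865 and 1088 in control leaves (log2 fold change -6.83 ± 1.3, edgeR adjusted p = 0.00415). Both copies of the ammonium transporter AMT1-1 fell (-5.76 and -2.28), as did the single copy of the nitrate transporter NRT2.5 (-5.47) and 3 of the 4 copies of the nitrate transporter NPF6.3 (-2.26 to -0.75 over the 4). NRAMP1, a manganese and iron transporter, was down to 1 count over the 3 WD libraries, against 281 counts over the 3 control libraries. The ratio of control to WD counts of this gene, BnaC06g19550D, was 183 with a 95% counting interval of 32.5 to 7235, and its call was lost without WD replicate 2 or 3 (adjusted p up to 0.0779).

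Fewer transporter names rose with all their copies. Both copies rose for SULTR3;4, listed by the study under sulfur, for NHX2 and POT6, which move potassium, for the magnesium transporter MGT6 and for ZIFL2. SULTR3;4 had the largest rise in the list: BnaC01g35550D had 83.8, 104 and 134 normalized counts in WD leaves, against 9.27, 14.9 and 14.4 in control leaves (log2 fold change 3.08 ± 0.42, edgeR adjusted p = 0.000666). Of 30 transporter names with 2 or more copies, 5 had all copies called up, 11 all copies called down and 5 no copy called. Another 8 had called copies in 1 direction beside uncalled ones. PHO1;H3 alone had both, with 1 of its 8 copies higher and 3 lower. The most counted transporter gene, NCL, a sodium and calcium exchanger, just missed the threshold, with 7069 ± 2402 normalized counts for BnaA06g01060D in WD and 3107 ± 1249 in control leaves (edgeR adjusted p = 0.0537).

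**Figure D4:**
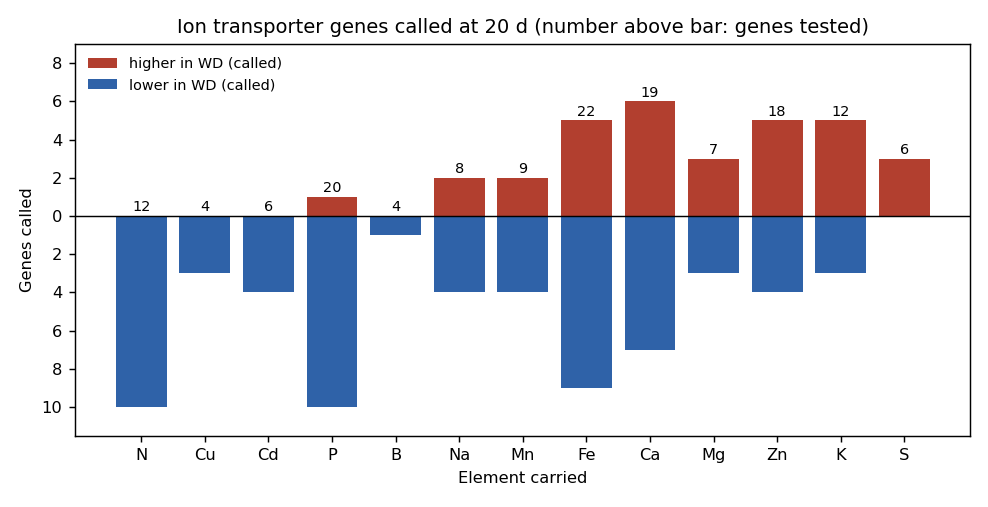
Number of ion transporter genes that rose (red, upward) or fell (blue, downward) in WD leaves at 20 d, by the element they carry, for the 13 elements with at least 4 genes tested, a gene listed under several elements being counted in each. Nitrogen and phosphorus show 10 falls each, and sulfur shows 3 rises and 0 falls. The nitrate transporter NPF7.3, listed under nitrate and not under nitrogen, is not shown.

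More cell wall genes fell than rose, and lists of other growth genes were small or mixed. Of 23 cell wall genes (xyloglucan enzymes, pectinesterases and their inhibitors, expansins and cellulose synthases), 13 fell and 5 rose, and with 1 library left out between 4 and 11 fell, fewest without WD replicate 3. The xyloglucan fucosyltransferase BnaC08g39910D, which decorates a wall polysaccharide, had 5.40, 1.28 and 1.79 normalized counts in WD leaves against 140, 155 and 150 in control leaves (log2 fold change -5.99 ± 0.96, edgeR adjusted p = 0.00158). The pectinesterase inhibitor BnaC09g05590D went the other way, with 16.2, 59.0 and 103 in WD leaves against 6.95, 3.99 and 4.42 in control leaves (log2 fold change 2.98 ± 0.55, edgeR adjusted p = 0.00341). Of 13 genes with a ribosomal protein domain, 6 fell and 2 rose, and 1 of those 2 is the HSP90 gene, which shares a fold name with ribosomal protein S5. BnaC02g31850D, annotated as ribosomal protein L5, had 195, 167 and 192 normalized counts in WD leaves against 398, 310 and 332 in control leaves, a call that held in 2 leave-out fits (adjusted p up to 0.113). Without WD replicate 2, control replicate 1 or control replicate 3, 1 fall was called in this list. The single cyclin gene rose, a call lost without WD replicate 2, and of 5 histones 1 rose and 0 fell.

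The few annotated photosystem genes did not move together. Of 5, 3 rose and 1 fell. The light-harvesting protein BnaC02g44590D, an antenna that binds chlorophyll, had 74.3, 70.5 and 68.7 normalized counts in WD leaves, against 356, 305 and 270 in control leaves (log2 fold change -2.13 ± 0.23, edgeR adjusted p = 0.000186). The most counted antenna gene, BnaCnng14300D, was not called, at 1099 ± 135 in WD and 1457 ± 311 in control leaves (edgeR adjusted p = 0.246). Pbs27, a photosystem II assembly protein encoded by BnaAnng39860D, rose, with 1308, 1474 and 1024 in WD leaves and 616, 480 and 679 in control leaves (edgeR adjusted p = 0.00814). Of 3 papain-type proteases, the family of the senescence marker SAG12, 2 were called lower and 1 was not called, and both calls were lost in every leave-out fit. The lower of these, BnaA07g13180D, had 5.40, 15.4 and 2.68 normalized counts in WD leaves and 32.9, 60.8 and 104 in control leaves.

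Transcription factor families held calls in both directions, and differences between families were not tested. Of the WRKY list 39.3% fell and 3.57% rose, and of the NAC list 36.4% and 9.09%, beside 33.1% and 29.8% of annotated genes. The shares that fell thus lay near that of annotated genes. WRKY factors, regulators of defence and senescence, were mostly lower where called, with 11 of 28 lower and 1 higher (median log2 fold change -1.79). BnaC03g67380D had 8.11, 11.5 and 7.14 normalized counts in WD leaves, against 412, 630 and 532 in control leaves (log2 fold change -6.01 ± 1.1, edgeR adjusted p = 0.0027). The most counted, BnaC07g43490D, had 455 ± 213 in WD and 1642 ± 682 in control leaves and was not called (edgeR adjusted p = 0.0838). The number of WRKY genes that fell was sensitive to the libraries in the model: it ranged from 3, without WD replicate 3, to 8 in the leave-out fits, and was 24 when only the libraries of 5 d and 20 d were fitted, an alternative chosen after seeing the data. Of 22 NAC factors, 8 fell and 2 rose, and 1 to 3 falls were called with 1 library left out. BnaA02g05540D had 97.3, 126 and 123 normalized counts in WD leaves against 3.25, 6.98 and 3.32 in control leaves, and BnaA10g13930D averaged 7.30 ± 4.03 in WD and 89.0 ± 51.1 in control leaves (SD, n = 3 each). Without WD replicate 1 only 1 NAC fall was called.

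Homeodomain, MYB and AP2/ERF factors were split. The shares that rose were 37.5%, 19.2% and 27.3% in that order, beside 29.8% of annotated genes. Those that fell were 25.0%, 42.3% and 13.6%, beside 33.1%. Of 8 homeodomain factors, 3 rose and 2 fell, and 1 to 3 rose with 1 library left out, fewest without WD replicate 2. BnaCnng73330D, which carries a leucine zipper beside its homeodomain, had 2337, 3276 and 2440 normalized counts in WD leaves and 537, 658 and 363 in control leaves (log2 fold change 2.38 ± 0.39, edgeR adjusted p = 0.00187), and BnaC04g00750D had 1957 ± 1002 in WD and 295 ± 134 in control leaves, a call lost without WD replicate 2 (adjusted p = 0.066). Of 26 MYB-type genes, 11 fell and 5 rose. With 1 library left out, 6 to 10 fell, fewest without WD replicate 1 or 3, and 2 to 3 rose, fewest without WD replicate 2, WD replicate 3 or control replicate 3. BnaA10g00780D, the most counted, had 2124, 2368 and 1723 in WD leaves against 5295, 5115 and 4490 in control leaves (log2 fold change -1.26 ± 0.22, edgeR adjusted p = 0.00242). Of 22 AP2/ERF factors, 6 rose and 3 fell, and these became 1 to 5 rises and 1 to 3 falls with 1 library left out, fewest without WD replicate 2 for rises and without WD replicate 3 or control replicate 2 for falls. BnaA02g27630D, which carries a B3 domain beside the AP2 domain, had 5.40, 2.56 and 5.36 normalized counts in WD leaves against 39.4, 85.7 and 95.1 in control leaves.

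Kinases and disease resistance genes were described by their counts. Of the kinase list 42.9% fell and 12.6% rose, and of the disease resistance list 28.1% and 18.8%, beside 33.1% and 29.8% of annotated genes. Of 198 protein kinases, a list picked after the calls were known, 85 fell and 25 rose, with a median log2 fold change of -1.30. With 1 library left out, 31 to 61 fell, fewest without WD replicate 3, and 9 to 21 rose, fewest without WD replicate 2. BnaA08g10600D, a kinase with the Gnk2 domain of cysteine-rich receptor kinases, had 1.35, 1.28 and 0.893 normalized counts in WD leaves, against 278, 300 and 372 in control leaves. That is 3 counts against 1236, a ratio of control to WD of 268 with a 95% counting interval of 91.4 to 1300. Among all 18 Gnk2-domain genes 11 fell and none rose, with 4 to 8 falls when 1 library was left out, fewest without WD replicate 3. In the other direction the kinase BnaC09g45580D, which carries the NAF domain of kinases that bind calcineurin B-like calcium sensors, had 809, 941 and 905 in WD leaves against 98.8, 69.8 and 74.1 in control leaves (log2 fold change 3.45 ± 0.52, edgeR adjusted p = 0.0012).

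Of 32 disease resistance genes of the NB-ARC and TIR types, intracellular receptors of pathogen effectors, 9 fell and 6 rose, and between 0 and 8 fell and between 1 and 4 rose with 1 library left out. The fewest were called without WD replicate 3 or control replicate 1 for falls, and without WD replicate 2, control replicate 1 or control replicate 3 for rises. BnaA01g03580D, which carries an RPW8 domain, rose to 1620, 2438 and 1425 normalized counts in WD leaves, against 289, 268 and 387 in control leaves (log2 fold change 2.56 ± 0.33, edgeR adjusted p = 0.000475). Of 7 thaumatin-like proteins, relatives of pathogenesis-related protein 5, 3 rose and 3 fell, and 1 to 3 fell with 1 library left out, the count being 1 without any library other than control replicate 2. BnaA06g13430D had 43.2, 62.8 and 27.7 in WD leaves against 1284, 602 and 3449 in control leaves, where the 3 controls differed widely and the call held in 1 leave-out fit (adjusted p up to 0.136).

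Enzymes of secondary metabolism showed some of the widest gaps. Sulfotransferases, which in Brassicaceae include the last step of glucosinolate core synthesis, gave the deepest fall of a named gene. BnaA09g14900D had 1.35, 0 and 2.68 normalized counts in WD leaves, against 524, 488 and 405 in control leaves (log2 fold change -9.17 ± 1.6, edgeR adjusted p = 0.00406), and BnaA02g27290D had 1.35, 1.28 and 1.79 in WD leaves against 99.2, 146 and 102 in control leaves. Of 29 cytochromes P450, a list picked after the calls were known, 15 fell (51.7%) and 8 rose (27.6%). The shares of annotated genes were 33.1% and 29.8%. With 1 library left out, 10 to 15 fell, fewest without WD replicate 1 or 3, and 2 to 7 rose, fewest without WD replicate 2. BnaC07g37460D had 4.05, 2.56 and 0.893 normalized counts in WD leaves against 432, 510 and 476 in control leaves (log2 fold change -8.18 ± 1.5, edgeR adjusted p = 0.00695). Of 9 family 1 beta-glucosidases, the family of the myrosinases that release mustard oils, 4 fell and 3 rose, and 2 to 3 falls and 0 to 2 rises were called with 1 library left out, with 0 rises without WD replicate 3 or control replicate 1. BnaC08g30360D had 5.40, 10.3 and 1.79 in WD leaves against 238, 346 and 445 in control leaves, whereas BnaA06g01540D had 7258, 5099 and 19212 in WD leaves against 552, 1703 and 889 in control leaves and lost its call without WD replicate 3 or control replicate 1 (adjusted p up to 0.0524).

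The remaining genes among the 10 largest falls of genes with an annotation had no shared family. The ABC transporter BnaA03g32640D had 4.05, 10.3 and 6.25 normalized counts in WD leaves, against 571, 749 and 654 in control leaves (log2 fold change -6.81 ± 1.2, edgeR adjusted p = 0.00236). The DC1-domain gene BnaC03g24830D and the Band 7 gene BnaA02g34440D each had 3 counts over the WD libraries, against 664 and 802 counts over the control libraries. Their ratios of control to WD were 144 and 174, with 95% counting intervals of 49.0 to 699 and 59.2 to 844.

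Both subgenomes took part. Of tested genes, 8.66% rose and 10.4% fell in the A subgenome, and 8.87% rose and 9.84% fell in the C subgenome, as read from the gene identifiers. By chromosome, the share that fell ran from 5.37% on C01 to 12.2% on A04, and the share that rose was lowest on C01, at 6.83%, and highest on C06.

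Whether the response belonged to the severe deficit was tested against a milder one. A further 6 libraries came from plants of the same cultivar held at 50% FC and harvested at 18 d, with their own controls at 80% FC. The difference between the WD response at 20 d with 25% FC and the response at 18 d with 50% FC passed the threshold in 1236 of 54835 genes (2.25%; edgeR's quasi-likelihood interaction test in a model of all 24 libraries), positive in 515 (0.939%) and negative in 721 (1.31%). The harvests differ in day as well as in soil water, and the 2 cannot be told apart. Each harvest has its own controls, so a difference can also come from the control plants. With 1 library of the 20 d harvest left out, between 140 and 352 genes were positive and between 242 and 547 negative, both lowest without control replicate 3.

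Of the 4762 genes that rose at 20 d, 434 (9.11%) had a called positive difference and 0 a called negative one. Their median log2 fold change was 1.94 at 20 d and -0.06 under the milder deficit. Of the 5479 that fell, 561 (10.2%) had a called negative difference and 0 a positive one, with medians of -1.26 at 20 d and 0.38 under the milder deficit. Both sets were chosen by this same difference. The gap between their medians follows from that choice and does not show that the genes lack a response to mild deficit. Chaperones were among the genes that rose and differed. The difference was called positive for 3 of the 11 small heat shock genes, 4 of the 6 HSP70 genes, 2 of the 14 DnaJ genes and 3 of the 4 Clp genes. In none of the 7 dehydrins, 5 carotenoid oxygenases, 3 ferritins or 10 glutathione S-transferases was it called in either direction, which does not show that their responses were alike.

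**Figure D5:**
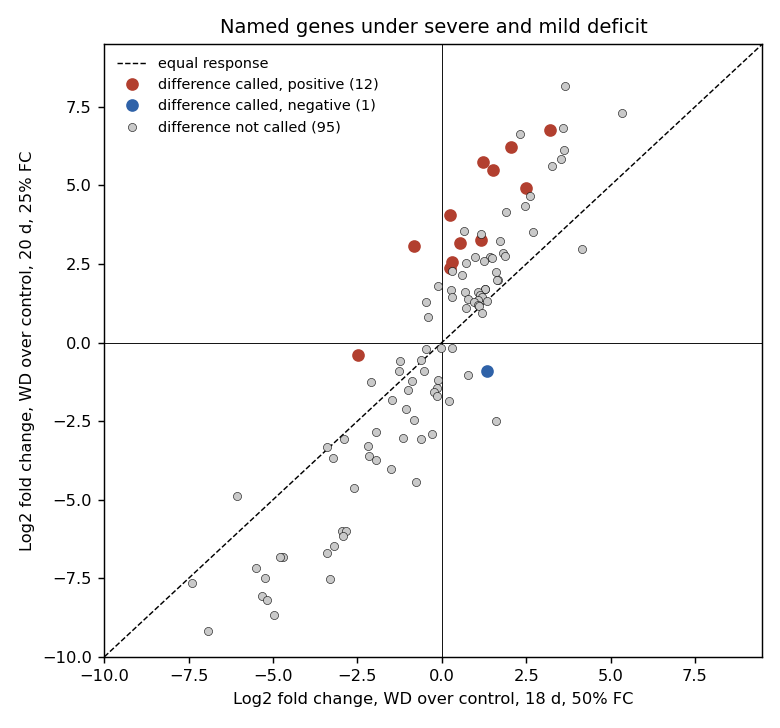
Log2 fold change of WD over control for the 108 named genes at 20 d with 25% FC (vertical axis) against 18 d with 50% FC (horizontal axis), with a dashed line where both are equal. The difference between the 2 responses was called positive for 12 genes (red), negative for 1 (blue) and not called for 95 (grey), and all red points lie above the line.

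The response at 20 d was also set against those of the earlier harvests. It differed from that at 5 d in 384 of 54274 genes (0.708%), with 279 positive (0.514%) and 105 negative (0.193%), and from that at 11 d in 0 genes by edgeR's quasi-likelihood test, although 5863 had an unadjusted p of at most 0.05 and the likelihood ratio test called 317. The order against the severe and mild comparison depended on the test. The likelihood ratio test called 2602 genes for 20 d against 5 d, and 1035 positive and 1392 negative genes for severe against mild. In data simulated for WD against control at 20 d, that test made 50 false calls of 166, against 3 of 77 for the quasi-likelihood test. Differences between responses were not simulated, so these false calls do not tell which test to trust for them. With 1 library of the 20 d harvest left out, between 13 genes, without control replicate 1, and 159 differed from 5 d. The count was 159 without WD replicate 1, 28 without WD replicate 2, 62 without WD replicate 3, 80 without control replicate 2 and 110 without control replicate 3. Leaf antenna gene BnaC02g44590D was one of them, with a difference of -2.24 on the log2 scale (edgeR adjusted p = 0.0135), and so was the lipid transfer gene BnaA02g07120D, with 7.17 (edgeR adjusted p = 0.0359).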

How the data were processed

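RNA of 3 WD and 3 control leaf samples per harvest was sequenced as stranded, poly(A)-selected read pairs. The counts deposited by the authors are raw numbers of read pairs per gene. Per the methods, reads were trimmed with Trimmomatic 0.36, ribosomal RNA was removed with sortMeRNA 2.1, and STAR 2.7.3a mapped and counted the pairs on the Genoscope version 5 genome. STAR counts a pair only where it is placed at 1 locus, so pairs shared by near-identical copies count on neither copy. The reverse-strand counts were used here, and rows that name no gene were left out.

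A gene was tested if 3 or more libraries reached 0.6 CPM. TMM scaling was applied, and counts were fitted in edgeR 4.0.16 (R 4.3.3) by quasi-likelihood to the 18 libraries that share the 5 d to 20 d time course, with 6 groups and the replicate number as an additive block, as in the study's own model. P-values were adjusted by Benjamini-Hochberg over all genes tested, at a threshold of 0.05. The labels give the 11 d harvest the date of 5 d, and the day in the methods was used. A model of all 24 libraries gave the difference between severe and mild responses. Normalized counts are counts divided by the effective library size and multiplied by its mean. Each SE was taken from the fold change and its F statistic. Count ratios carry exact 95% intervals, which cover counting error only. The labels do not say that replicates came from separate runs of the experiment, so p-values measure the spread between pools of 2 plants. That spread was estimated over all libraries of each model, not from the 20 d libraries alone.

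Named genes were the 10 largest rises and 10 largest falls with an annotation, no overlap, a mean of at least 100 normalized counts in the higher group and a call in all 6 leave-out fits, at most 2 per annotation. Before that last limit 402 genes were eligible, against 2515 that met the other rules with or without an annotation. Larger changes among genes without an annotation are therefore not named. In each list the called member with the largest rise, the one with the largest fall and the most counted member were added, with a mean of at least 10. The members and lists were chosen with earlier results of these data known, and the lists of kinases, sugar transporters, EF-hand proteins, remorins, BURP, Gnk2 and dormancy proteins and cytochromes P450 were chosen later still. No aquaporin or proline synthesis gene was annotated. Alternatives were other libraries in the model, blocks, tests, normalizations, filters and strand settings, DESeq2 1.42.0, and leaving out each library. On simulated data with 200 changed genes of 53363, the test recovered 63% of 4-fold and 11% of 2-fold changes, with 3 false calls of 77. On the same data the likelihood ratio test made 50 false calls of 166, and DESeq2 48 of 164. In the real data 18.9% of genes were called, a far larger share than was changed here, so these values do not carry over to them.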

Additional observations from a re-analysis of the deposited data

Results flagged for a closer look

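For 13 of the named genes, the WD response at 20 d with 25% FC differed from the response at 18 d with 50% FC (edgeR's quasi-likelihood interaction test, adjusted p at most 0.05). Differences are log2 fold changes at 20 d minus those at 18 d. Chaperone genes gave 3.57 for the small heat shock gene BnaC02g04180D, 4.13 and 3.95 for the ClpA/B genes BnaC06g35220D and BnaA07g31420D, 2.46 and 2.63 for the HSP70 genes BnaC05g12240D and BnaA03g32320D, and 2.11 for the DnaJ gene BnaA09g43710D. The bridging factor BnaA07g05600D gave 4.53, the phosphatase BnaA10g04840D 3.80 and the sulfate transporter gene BnaC01g35550D 3.91. The disease resistance gene BnaA01g03580D gave 2.24 and the homeodomain factor BnaCnng73330D 2.14. Part of a difference can come from the controls. For BnaA07g05600D, controls held 0.568 to 0.773 CPM at 20 d and 1.78 to 3.58 at 18 d. These ranges were 0.643 to 0.966 and 1.73 to 3.06 for BnaC01g35550D, and 1.77 to 2.41 and 4.41 to 6.88 for BnaC06g35220D. For BnaA10g04840D they overlapped, at 0.781 to 1.29 and 1.05 to 2.06.

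In 2 of the 13 the difference came with a response at 20 d that was small. The antenna gene BnaCnng14300D gave 2.08, from -0.41 at 20 d and -2.49 at 18 d. The lipid transfer gene BnaC08g22920D gave -2.24, from -0.90 at 20 d and 1.34 at 18 d. With 1 library of the 20 d harvest left out at a time, 8 of the 13 kept their call in all 6 fits. Those that did not were BnaC05g12240D, BnaA10g04840D, BnaA09g43710D, BnaA01g03580D and BnaCnng73330D.

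For 11 named genes the response at 20 d differed from that at 5 d. The differences on the log2 scale were 7.17 for BnaA02g07120D, 5.29 for BnaC02g04180D, 5.33 for BnaC06g35220D, 4.40 for BnaA07g31420D and 4.06 for BnaA07g05600D. They were 3.63 for BnaC05g12240D, 3.22 for BnaA03g32320D, 2.83 for BnaC01g35550D, 2.38 for BnaA01g03580D, 3.59 for the LEA gene BnaCnng23520D and -2.24 for the antenna gene BnaC02g44590D. No named gene differed between 20 d and 11 d by this test.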

How the results depend on the processing

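No called named gene reversed under any setting run. The excess of falls over rises at 20 d did reverse under DESeq2 size factors and in DESeq2 itself. That excess also reversed with the 20 d libraries fitted alone with the replicate block (8003 rises, 7903 falls). The same held when any library of that harvest other than WD replicate 2 was left out. The number of genes that rose at 20 d was 8003 when the 20 d libraries were fitted alone and 7812 with the libraries of 5 d and 20 d only, an alternative chosen after seeing the data, against 4762. Leaving out 1 library gave 2297 to 3489 rises and 2304 to 3139 falls. For the severe minus mild difference the likelihood ratio test called 1035 positive and 1392 negative, and leaving out 1 library gave 140 to 352 positive and 242 to 547 negative. For 20 d minus 5 d the likelihood ratio test called 2602, a replicate block within each harvest called 1136, and leaving out 1 library gave 13 to 159. For 20 d minus 11 d these tests called 317 and 43, against 0. Same-numbered samples correlated in their deviations at 0.384, 0.221 and 0.0012, so the numbers do not pair the samples throughout. Without the replicate block 4923 genes rose and 5791 fell, and 575, 847, 559 and 0 were called for the severe minus mild (positive, negative), 20 d minus 5 d and 20 d minus 11 d differences. Of 97 named genes that were called, 88 were called under all 12 settings other than leaving out a library, and 60 in all 6 leave-out fits. In data simulated with 200 changed genes of 53363, 11% of 2-fold changes were recovered. A far larger share of genes, 18.9%, was called in the real data, so that recovery does not carry over to them. Small changes could still be missed. In the simulation the likelihood ratio test and DESeq2 each made a larger share of false calls than the quasi-likelihood test, a result limited to that setting. Promoter motifs were not analysed here.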
